A study of Mus musculus with 4 samples.

Results

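The genes described are the 9 that encode the machinery by which the transcription factor NRF1 is brought out of the endoplasmic reticulum (ER) and cut by the protease DDI2. They were chosen by function and are Ddi2, Nfe2l1 (which encodes NRF1), Ngly1, Vcp, Ufd1, Nploc4, Sel1l, Syvn1 and Rad23b, 9 of the 48709 gene identifiers counted. The question was whether their mRNA levels differed between the livers of WT mice and of mice labelled DDI2-KO. Poly(A) RNA was sequenced from 4 untreated livers of the C57BL/6 strain, 2 WT and 2 DDI2-KO. Per the study's methods, the DDI2-KO mice were homozygous for a floxed Ddi2 allele (flox/flox) and carried Cre recombinase under the albumin promoter, which is active in hepatocytes. The WT mice were littermate controls. The study bred the line by crossing flox/flox mice without Cre to flox/flox mice with Cre, so littermates of that cross carry both floxed alleles and WT stands for the absence of Cre. Liver cells that do not express albumin keep Ddi2 in both groups. The labels give no sex or age for a library. The study used young mice of both sexes and gives only a range of ages, in weeks, for its animals.

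NRF1 is made as a glycoprotein anchored in the ER membrane and is normally destroyed by ER-associated degradation. The ubiquitin ligase HRD1 (Syvn1), with its partner SEL1L, marks it with ubiquitin, the ATPase p97 (Vcp), with its cofactors UFD1 and NPL4 (Nploc4), pulls it into the cytosol, and the glycanase NGLY1 strips its sugars. Ubiquitin shuttles such as RAD23B carry proteins to the proteasome. When proteasomes are overloaded, NRF1 escapes destruction, DDI2 cuts it near its N-terminus, and the released factor enters the nucleus, where it is best known for switching on proteasome subunit genes. In liver it also takes part in the control of metallothionein and lipid genes.

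The sequences that carry this reaction were read from the GRCm38 transcripts and are given 5′ to 3′ on the coding strand. The exon removed by Cre, the active site of the protease and the bond it cuts are shown because they decide what a read count of each gene can and cannot tell. In the first, exon 2 of Ddi2 (chr4:141713397-141713526, minus strand) is in capitals between 20 transcript bases on either side. In the second, capitals mark the codons Asp-Ser-Gly of the aspartic protease active site. In the third, capitals mark the Trp-Leu codons of Nfe2l1 at the bond that DDI2 cuts.
Ddi2 exon 2: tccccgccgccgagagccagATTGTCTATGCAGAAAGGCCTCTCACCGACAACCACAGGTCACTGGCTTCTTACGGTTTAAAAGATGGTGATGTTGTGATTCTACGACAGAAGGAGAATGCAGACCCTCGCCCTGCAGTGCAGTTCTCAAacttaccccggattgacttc
Ddi2 active site: gcctttgtcGACTCAGGAgcccagatg
Nfe2l1 cleavage site: gaggtcaatgctTGGCTGgtccaccgagac

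The LoxP sites lie on both sides of Ddi2 exon 2, as the study draws the locus. The study's text does not name the exon, so what follows rests on that drawing. This exon has 130 bases, all coding, a length that leaves a remainder of 1 after division by 3. In the annotated transcript without exon 2, reading would pass from the 46 whole codons of exon 1 into another frame and meet a stop after 55 codons, whereas the full protein has 399. The active-site aspartate is codon 252, in exon 5, beyond that stop. Exon 2 makes up 1.36% of the 9553 bases of the longest transcript, and the last exon, exon 10, makes up 84.6% with its 8083 bases. The counts are per gene and do not separate exons, and nearly all of the transcript lies outside the deleted part. The count of Ddi2 therefore does not show whether exon 2 was present. Whether mRNA without exon 2 is kept at another level was not tested. The study genotyped its mice by PCR and blotted DDI2 protein in livers of both genotypes. From these blots it reports that depleting DDI2 in hepatocytes stopped the cleavage of NRF1 that cadmium sets off in liver. The blotted mice had received PBS or cadmium, unlike the untreated livers sequenced. Nfe2l1 has a 741-codon protein in its longest transcript, with 8 Asn-X-Ser/Thr sites, the kind to which the ER attaches the sugars that NGLY1 removes. The Trp-Leu pair stands at codons 103 and 104 in 5 of the 9 annotated transcripts with a start codon, and the counts do not separate those from the others.

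Reads on genes numbered 34109018 and 31532247 for WT and 25582344 and 22501208 for DDI2-KO, so a gene with 3 reads, taken as the detection floor, stood at 0.088 to 0.133 CPM. Levels are given in this unit, a gene's reads scaled to a common library total (CPM), after TMM normalization, which corrects library totals for composition. The 2 libraries of a group differed by more than counting noise in both groups, with a chi-square per degree of freedom of 48.5 in WT and 26.3 in DDI2-KO. Among cell type markers, 9 hepatocyte genes summed to 156000 to 191000 CPM in the 4 libraries, with none called, and so were abundant in this tissue labelled liver. In these bulk samples, fewer cells of a type and less RNA per cell cannot be told apart. Lists for the other liver cells gave 1 call over all, Stab2, an endothelial scavenger receptor, at 73.7 and 61.2 CPM in WT and 32.9 and 29.9 CPM in DDI2-KO (log2 fold change −1.10, SE 0.17, edgeR adjusted p = 0.0288), a call that was lost without WT replicate 1. Among the Kupffer cell genes, which the main edgeR test did not call, DESeq2 called Adgre1 (log2 fold change 0.58 in edgeR) and the replicate block called C1qa (−0.72). The lymphocyte list summed to 30.1 and 30.4 CPM in WT and to 22.3 and 25.9 CPM in DDI2-KO, and the bile duct list to 56.4 and 52.8 CPM against 70.4 and 68.7 CPM. Most of each sum came from 1 gene. Ptprc held 20.3 and 18.3 CPM (WT) against 13.5 and 15.4 CPM (DDI2-KO) of the lymphocyte list. Spp1 held 51.9 and 46.3 CPM against 64.2 and 62.4 CPM of the bile duct list. These sums therefore say little about either list as a group. The 10 Kupffer cell genes summed to 839 to 984 CPM in WT and 869 to 1070 CPM in DDI2-KO, the 8 endothelial genes to 459 to 503 CPM and 429 to 466 CPM, and the 8 stellate cell genes to 477 to 529 CPM and 458 to 473 CPM. The part of these cells in the values of the pathway genes was not tested.

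All 9 pathway genes were transcribed well above the floor in every library, and none was called changed. Of the 9, 7 had higher mean levels and 2 (Syvn1 and Rad23b) lower mean levels in DDI2-KO, with log2 fold changes from −0.48 to 0.33 and a median of 0.17, beside a median of −0.015 over all genes tested. All 9 passed the filter on low counts. In edgeR's quasi-likelihood test 0 of 9 had an adjusted p under 0.05, where 2.53% of the 13699 tested genes did, and DESeq2, limma-voom and limma-trend also called 0. The smallest adjusted p, 0.128, was that of Syvn1, which alone had an unadjusted p under 0.05. In 7 of the 9 both libraries of one group lay above both of the other, and over all tested genes this held for 55.7%. The 95% intervals of the 9 log2 fold changes together ran from −0.86 to 0.76, so a change of 2-fold or more lay outside each of them, while smaller changes were not resolved with 2 livers per group.

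**Figure D1:**
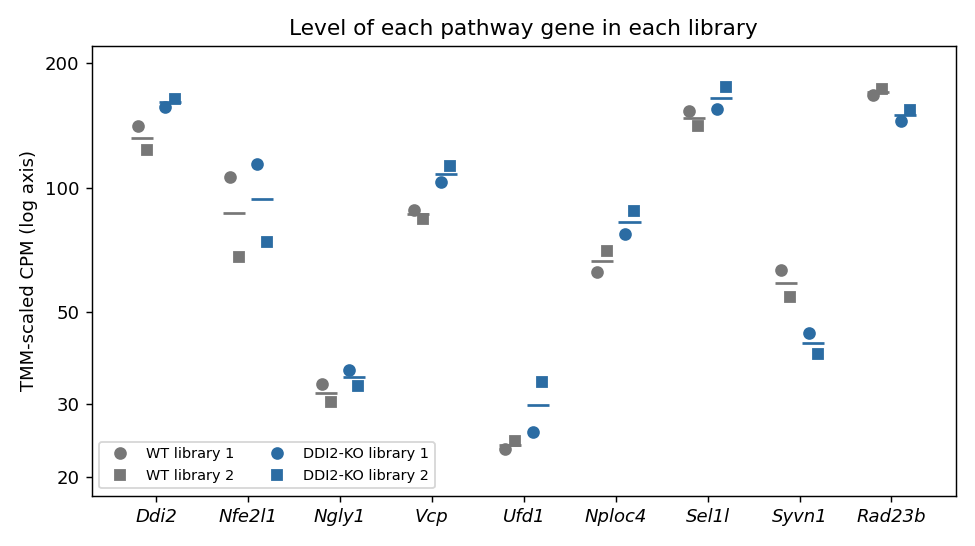
Level of each of the 9 pathway genes in each of the 4 libraries, in CPM on a log axis, with points for single livers and a line at the mean of each group of 2. The 2 groups overlap for Nfe2l1 and Ngly1, and Syvn1 and Rad23b are the genes with lower values in both DDI2-KO libraries.

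**Figure D2:**
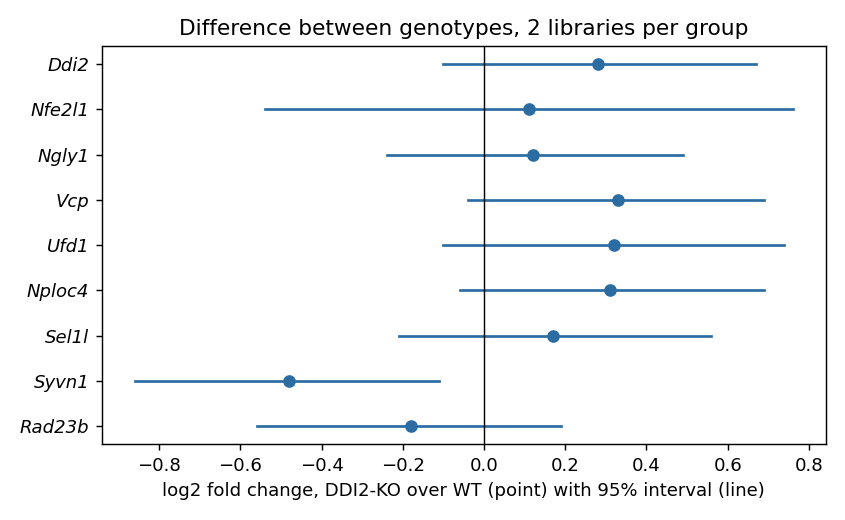
Log2 fold change of each pathway gene, DDI2-KO over WT, from edgeR, with its 95% interval. Only the interval of Syvn1 (−0.86 to −0.11) lies wholly on one side of 0, and no gene passed the adjusted threshold.

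Ddi2 encodes the protease itself and lies on chr4:141677549-141723419 (GRCm38, minus strand, 10 exons). Its reads numbered 4749 and 3812 for WT against 4068 and 3777 for DDI2-KO, that is 141 and 123 CPM against 157 and 164 CPM. Both DDI2-KO libraries were thus higher than both WT libraries, although the deletion label concerns this gene. The log2 fold change of Ddi2 was 0.28 (SE 0.17, 95% interval −0.10 to 0.67, adjusted p = 0.349), a fold of 1.21 with an interval of 0.931 to 1.59. Messenger RNA without exon 2, and mRNA of cells that kept the exon, cannot be told apart from intact hepatocyte mRNA in such a count. The only annotated gene with exons over those of Ddi2 on its strand is Rsc1a1, which shares 1749 bases (18.3% of the Ddi2 exon bases). Rsc1a1 was listed at 0 reads in all 4 libraries, and reads that fit both genes were left out by the counting.

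Nfe2l1, the substrate of the pathway, lies on chr11:96817414-96829968 (minus strand). Its reads numbered 3564 and 2100 for WT against 2959 and 1693 for DDI2-KO, equal to 106 and 68.0 CPM against 114 and 73.7 CPM. The libraries numbered 1 were high and those numbered 2 low in both groups, by a log2 difference of −0.64 in WT and −0.63 in DDI2-KO from the first to the second, so the spread within each genotype was larger than the gap between them. The log2 fold change was 0.11 (SE 0.28, 95% interval −0.54 to 0.76, adjusted p = 0.845), the widest interval of the 9. With WT replicate 2 left out it was −0.17, and with DDI2-KO replicate 1 left out it was −0.24, so its direction rested on single livers. Equal numbers mark no shared animal or batch in the labels. A transcript count gives no measure of how much NRF1 protein was cut. For Mt1, a metallothionein gene, 97.3 and 47.0 CPM in WT stood against 5.41 and 4.66 CPM in DDI2-KO in the same libraries.

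Ngly1, whose product removes N-linked sugars from proteins drawn out of the ER and converts the asparagines of NRF1 to aspartates, lies on chr14:16249280-16311926 (plus strand). It stood at 33.5 and 30.4 CPM in WT (1125 and 939 reads) and at 36.3 and 33.2 CPM in DDI2-KO (940 and 764 reads). The groups overlapped, and within both the library numbered 2 was lower, by 0.14 and 0.13 on the log2 scale. The log2 fold change was 0.12 (SE 0.16, adjusted p = 0.686), with an interval of −0.24 to 0.49.

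The 3 parts of the extraction complex all had higher mean levels in DDI2-KO. Vcp, the ATPase that unfolds and pulls out its clients, lies on chr4:42979963-43000507 (minus strand) and stood at 88.2 and 84.0 CPM in WT and 103 and 113 CPM in DDI2-KO. Ufd1, a cofactor that binds ubiquitin, lies on chr16:18811779-18835261 (plus strand) and stood at 23.3 and 24.4 CPM against 25.7 and 33.9 CPM. Nploc4, which forms a heterodimer with UFD1, lies on chr11:120380370-120437708 (minus strand) and stood at 62.5 and 70.3 CPM against 77.3 and 87.7 CPM. In each of the 3 genes both DDI2-KO libraries were above both WT libraries. The gap was narrowest for Ufd1, where one DDI2-KO library (25.7 CPM) lay close to WT and the other well above it.

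The log2 fold change was 0.33 for Vcp (SE 0.16, interval −0.04 to 0.69, adjusted p = 0.258). For Ufd1 it was 0.32 (SE 0.18, interval −0.10 to 0.74, adjusted p = 0.334), and 0.11 with DDI2-KO replicate 2 left out. For Nploc4 it was 0.31 (SE 0.16, interval −0.06 to 0.69, adjusted p = 0.286). None of the 3 passed the test. With offsets for GC content and length the values were 0.18 for Vcp, 0.16 for Ufd1 and 0.24 for Nploc4. In linear terms the fold was 1.25 for Vcp and for Ufd1 and 1.24 for Nploc4.

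What surrounds these genes limits 2 of the counts. Of the Vcp transcript's stretches of 50 bases, 60.1% also occur in Vcp-rs, a near-identical copy, and reads that aligned to several places were counted on no gene, so the level of Vcp is uncertain and may be understated. Vcp-rs itself held 5 and 3 reads (WT) against 8 and 5 (DDI2-KO). The exons of Ufd1 overlap those of Cdc45, a replication factor on the opposite strand, over 209 bases (4.82% of Ufd1 exon bases). Cdc45 had 31 to 64 reads in a library, against 664 to 783 reads for Ufd1.

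The 2 subunits of the HRD1 ligase went separate ways in their mean levels. Sel1l, the adaptor that holds the complex together, lies on chr12:91806043-91849157 (minus strand) and stood at 153 and 141 CPM in WT and 155 and 175 CPM in DDI2-KO. Syvn1, the ubiquitin ligase, lies on chr19:6046576-6053712 (plus strand) with 2126 and 1682 reads for WT against 1149 and 912 for DDI2-KO, equal to 63.2 and 54.4 CPM against 44.4 and 39.7 CPM. For Syvn1 both DDI2-KO libraries lay below both WT libraries, and for Sel1l they lay above, the lower one by a narrow margin.

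The log2 fold change of Syvn1 was −0.48 (SE 0.16, interval −0.86 to −0.11), a fold of 0.715 with an interval of 0.552 to 0.925. Its unadjusted p in edgeR was 0.0169 and its adjusted p 0.128, so it did not pass the threshold. Leaving out each library in turn gave −0.59 to −0.37, and over all alternatives its adjusted p ran from 0.0913 to 0.542. For Sel1l the log2 fold change was 0.17 (SE 0.17, interval −0.21 to 0.56, adjusted p = 0.580). Per base of merged exons, the ratio of Syvn1 to Sel1l was 0.730 and 0.682 in WT and 0.503 and 0.398 in DDI2-KO. The means of this ratio were 0.706 ± 0.0338 and 0.451 ± 0.0741 (SD, n = 2), with a two-sided exact permutation p of 0.333, the smallest that 2 against 2 libraries allow. That test could therefore not pass the threshold. The ratio was not among the planned results and restates the opposite directions of Syvn1 and Sel1l. Syvn1 shares 91 exon bases (1.87% of its own) with Mrpl49 on the opposite strand, a mitochondrial ribosomal protein gene, which held 1007 and 948 reads (WT) against 947 and 821 (DDI2-KO).

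Rad23b encodes a shuttle that binds ubiquitin chains with one end and the proteasome with the other, and lies on chr4:55350043-55392237 (plus strand). It stood at 167 and 173 CPM in WT (5603 and 5353 reads) and at 145 and 154 CPM in DDI2-KO (3759 and 3534 reads). Both DDI2-KO libraries were lower, and the livers within each group differed by less than 0.1 on the log2 scale. The log2 fold change was −0.18 (SE 0.16, interval −0.56 to 0.19, adjusted p = 0.537).

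**Figure D3:**
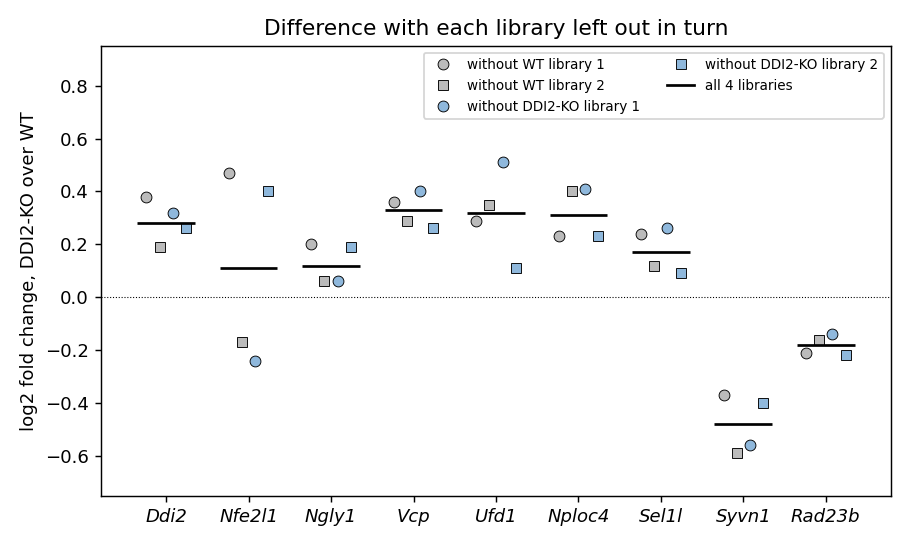
Log2 fold change of each pathway gene in the whole set and with each of the 4 libraries left out in turn. Nfe2l1 moves across 0, from −0.24 to 0.47, whereas the other 8 genes keep their side, with Syvn1 between −0.59 and −0.37.

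Levels of different genes were compared per kilobase of merged exons (CPM per kb). In WT, Rad23b was highest, at 29.6 ± 0.815 CPM per kb (mean ± SD, n = 2), and stood apart from the next gene. Vcp (17.8 ± 0.607), Sel1l (17.1 ± 0.993), Nfe2l1 (16 ± 4.94), Nploc4 (13.9 ± 1.16), Ddi2 (13.9 ± 1.32) and Syvn1 (12.1 ± 1.28) followed as a chain in which each neighbour overlapped the next. Ufd1 (5.50 ± 0.187) and Ngly1 (4.23 ± 0.287) were lowest, each apart from the gene above it. UFD1 and NPL4 work as a pair, and in WT the level per length of Ufd1 was below that of Nploc4 in both libraries. The size of this gap depends on the length used. Merged exons span 4336 bases for Ufd1 and 7555 for Ngly1, against 2078 and 3296 in their longest transcripts. For Nploc4 these lengths are 4776 and 4121 bases, so division by merged exons lowers Ufd1 and Ngly1 more than Nploc4.

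In DDI2-KO, Rad23b (26.1 ± 1.06 CPM per kb) was again highest and Vcp (22.3 ± 1.53) second, both apart from the next gene. Sel1l (19.3 ± 1.66), Nploc4 (17.3 ± 1.54), Nfe2l1 (17.3 ± 5.28) and Ddi2 (16.8 ± 0.532) formed an overlapping chain. Syvn1 (8.65 ± 0.685) now stood apart beneath Ddi2, followed by Ufd1 (6.87 ± 1.34) and Ngly1 (4.60 ± 0.287). These levels depend on the length taken for each gene, and for Vcp on the reads lost to its copy. For Ddi2 they also depend on the reads left out where its exons overlap those of Rsc1a1 (18.3% of its exon bases).

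The start regions of the 9 genes were searched for 4 motifs on both strands, in the 250 bases before and 50 after each RefSeq start of GRCm38.p6, since NRF1 and the factors of the ER stress response act through known elements. The table holds 13 promoters for the 9 genes, and 4 of these genes (Ddi2, Ngly1, Ufd1 and Nploc4) had no match to any of the 4 motifs. The core of the antioxidant response element that CNC factors such as NRF1 bind (TGACNNNGC) was found for 1 of the 9, Vcp, and in 12.4% of the 32851 promoters of the table. The ATF6- and XBP1-type element TGACGTGG was found for 2, Vcp and Nfe2l1, and in 0.676% of promoters. Counts for the 9 are of genes with a match at any start, while the percentages are of single promoters, so the 2 are unlike measures. Nfe2l1 has more than 1 start, and not each of them held the TGACGTGG match. The ER stress response element, CCAAT and CCACG separated by 9 bases, was found for 1, Syvn1, and in 0.119%, that is 39 promoters. The plain CCAAT box was found for 5 of the 9 and in 37.4% of promoters. The TGACGTGG and TGACNNNGC matches of Vcp are the same bases, and the CCAAT of the Syvn1 element is also counted as a CCAAT box. The stretches are printed because Syvn1 had the smallest p of the 9 and Vcp held matches to 2 of the elements. Capitals mark the ER stress response element in the first (chr19:6046476-6046575, plus strand) and the overlapping matches in the second (chr4:43000598-43000647, minus strand).
Syvn1 upstream: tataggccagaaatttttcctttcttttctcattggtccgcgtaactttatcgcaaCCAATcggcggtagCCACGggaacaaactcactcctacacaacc
Vcp upstream: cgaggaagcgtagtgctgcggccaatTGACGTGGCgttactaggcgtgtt
A match is a description of letters and does not show that a factor was bound in these livers.

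Genes around the pathway were taken from 8 lists, and edgeR called 2 of them, beside 2.53% of all tested genes. Among 36 other genes of ER-associated degradation, 22 had higher and 14 lower mean levels in DDI2-KO (median log2 fold change 0.09), and 1 was called. That gene, Derl1, which encodes a channel protein of the HRD1 complex, stood at 83.2 and 85.3 CPM in WT and rose to 166 and 137 CPM (log2 fold change 0.85, SE 0.17, adjusted p = 0.0472). Among 32 genes of the 26S proteasome, 17 were higher and 15 lower (median 0.07), and edgeR called 1, Psmb4, a subunit of the core particle. Psmb4 rose from 59.5 and 59.4 CPM to 101 and 100 CPM (log2 fold change 0.76, SE 0.15, adjusted p = 0.0472). Both calls lay close to the threshold and were lost under upper-quartile scaling, limma, a filter at 1 CPM, non-robust estimation, and without any one of WT replicate 1, WT replicate 2 and DDI2-KO replicate 1. Other proteasome genes had lower levels that the main edgeR test did not call. DESeq2, the replicate block, no filter and the offsets for GC content and length also called Adrm1, a ubiquitin receptor (12.6 and 11.9 CPM in WT, 7.77 and 4.79 CPM in DDI2-KO, log2 fold change −0.96, edgeR adjusted p = 0.0780), and Psmc6, an ATPase subunit (−0.80, adjusted p = 0.0732). The offsets also called Psmd3 (−0.55, adjusted p = 0.118).

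The cofactors that bind p97 besides UFD1 and NPL4 had 18 tested genes, of which 15 were lower and 3 higher (median −0.21), with 0 called by edgeR, 2 at an unadjusted p under 0.05, and 0 by DESeq2 or limma. With offsets for GC content and length, 12 of the 18 were lower. Ubxn2b stood at 5.41 and 5.02 CPM against 3.05 and 2.92 CPM (log2 fold change −0.80, adjusted p = 0.0973), and Ubxn1 had −0.48 (adjusted p = 0.217). Faf1, an adaptor that helps p97 engage ubiquitinated clients, stood at 28.7 and 26.7 CPM against 38.4 and 39.3 CPM (log2 fold change 0.49, adjusted p = 0.116), and its relative Faf2 had 0.18. Ubxn10 and Ubxn11 were too low to test. Thus the trio Vcp, Ufd1 and Nploc4 had positive values while most other p97 cofactors had negative ones, and no gene on either side passed the test.

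Of the ubiquitin shuttles besides RAD23B, 4 were tested and 0 called, with 0 at an unadjusted p under 0.05 and 0 by DESeq2 or limma. Among the ubiquilins, the log2 fold change was −0.12 for Ubqln1, −0.05 for Ubqln2 and 0.03 for Ubqln4, and Ddi1, the testis relative of Ddi2, was too low to test. The oligosaccharyltransferase, which adds the sugars that NGLY1 later removes, had 12 genes, 8 higher and 4 lower (median 0.14), with 0 called and 4 at an unadjusted p under 0.05. Its small subunit gene Ost4 stood at 45.2 and 46.0 CPM against 28.0 and 28.2 CPM (log2 fold change −0.70, adjusted p = 0.0543), the list's smallest adjusted p, and DESeq2 called it. Krtcap2 had −0.46, Stt3b, a catalytic subunit, 0.41 and Tusc3 0.45.

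The relatives and DNA-binding partners of NRF1, that is CNC and small MAF factors, had 8 genes, 7 lower and 1 higher (median −0.21), with 0 called and 0 at an unadjusted p under 0.05. DESeq2 and limma called 0. With single libraries left out, Nfe2l3 was called without WT replicate 1 and Nfe2 without DDI2-KO replicate 1. Nfe2l2, which encodes NRF2, stood at 87.9 and 102 CPM against 80.2 and 87.2 CPM (log2 fold change −0.19, adjusted p = 0.547). Nfe2l3 held 12 and 80 reads (WT) against 10 and 5 (DDI2-KO), so its log2 fold change of −2.24 (SE 1.00, adjusted p = 0.244) rested on 1 WT liver. Nfe2 had −0.84 (adjusted p = 0.377), Maff −0.06 and Bach2 0.08.

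Genes that act on the stability of NRF1 numbered 9, 5 higher and 4 lower (median 0.07), with 0 called and 3 at an unadjusted p under 0.05. Ogt, which attaches O-GlcNAc, stood at 74.7 and 77.3 CPM against 28.2 and 52.3 CPM (log2 fold change −0.92, SE 0.28, adjusted p = 0.112), and its partner Hcfc1 had −0.39. DESeq2 called Ogt, and limma called none of the list. Skp1a and Rbx1, parts of cullin ligases, had 0.39 and 0.37. Of 20 genes of the unfolded protein response, 8 were higher and 12 lower (median −0.03), with 0 called and 4 at an unadjusted p under 0.05. The chaperone gene Calr stood at 892 and 916 CPM against 608 and 525 CPM (log2 fold change −0.67, adjusted p = 0.0764) and was called by DESeq2. Sdf2l1 had −0.70, the stress kinase gene Eif2ak3 0.56 and Atf4 0.47. This list, to which Syvn1 is related as a gene of ER quality control, thus held values on both sides of 0. The main edgeR test and limma called none of it. The replicate block and the offsets for GC content and length also called Calr, and the fit with no filter called Calr and Sdf2l1.

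**Figure D4:**
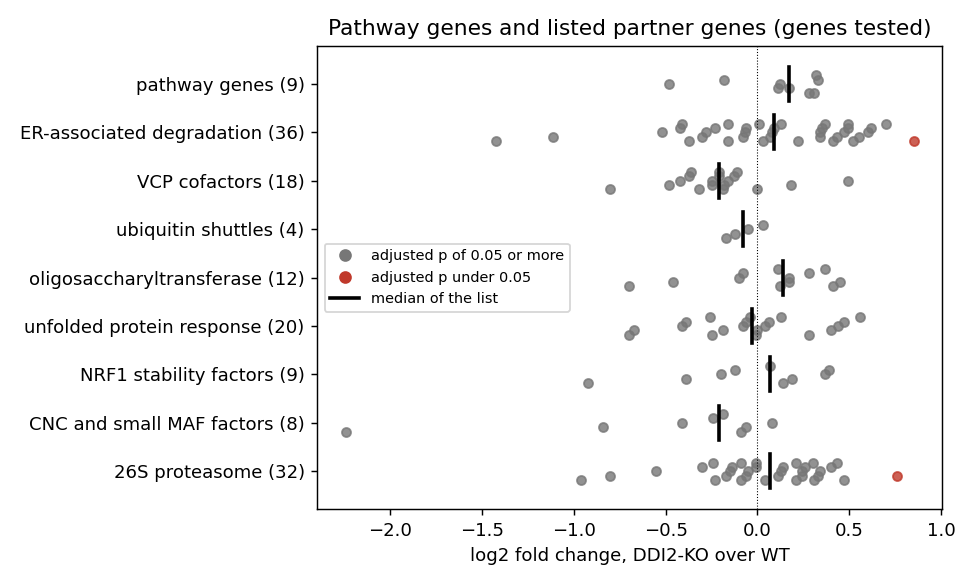
Log2 fold change, DDI2-KO over WT, of the 9 pathway genes (top row) and of every tested gene in the 8 partner lists, 1 row per list, with a vertical bar at each median. Derl1 (0.85) and Psmb4 (0.76) are the 2 called genes, in red, and Nfe2l3 lies far to the left at −2.24.

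Likeness of pattern was measured over the 4 libraries as the distance between centred log2 CPM values, over the 7380 genes that averaged 10 CPM or more, and is a description only. Nearest to Ddi2 were Entpd8 (distance 0.0062), Emc1 (0.027), Lonp2 (0.027), Tfb1m (0.029) and Ugt2a3 (0.034), and 573 genes lay within 0.2 of it. Nearest to Nfe2l1 were Acsf2 (0.066), Lrp5 (0.078), Tmem184a (0.085), Paqr7 (0.092) and Mgmt (0.12), with 20 genes within 0.2. The distance is not scaled for how much a gene varied, and Nfe2l1 varied more than Ddi2. The counts of 573 and 20 near genes therefore cannot show whose pattern was the more common. The levels of Nfe2l1 followed the replicate numbers rather than the genotype.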

How the data were processed

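The values deposited by the authors are raw counts, reads per Ensembl gene, for 4 libraries made with a stranded mRNA kit. The submitters' processing notes name cutadapt 1.8, STAR 2.5.2b, HTSeq 0.6.1 and GRCm38. The strand setting of the counting is not given in the sources used here. Summary rows for reads that fit no gene (2.53% to 5.11% of reads on genes), several genes or several places were kept out of totals and tests. Of the 48709 identifiers, 48349 were in the GENCODE M21 annotation of GRCm38, the source of coordinates, lengths and symbols. Promoters are from RefSeq.

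CPM and tests were computed here in R 4.3.3 with edgeR 4.0.16 (TMM, filterByExpr, robust glmQLFit, glmQLFTest), genotype against genotype, with no replicate block. P-values were adjusted by Benjamini-Hochberg over 13699 genes with a threshold of 0.05. The standard error was the log2 fold change divided by the square root of F. Nothing ties libraries of different number to separate litters or days, so p-values measure the spread between these samples. The scripts were tested on simulated data. The members and lists were chosen with earlier results of these data known. The genes named are the 9 members, in each list the called genes or otherwise the 2 highest and 2 lowest log2 fold changes, and the 5 genes nearest to Ddi2 and Nfe2l1. A gene under this rule is not reported here. Beyond this rule, Nfe2l2, Mt1, Adrm1, Psmc6, Psmd3, Adgre1, C1qa and genes overlapping members were named after their values were seen. Alternatives were RLE, upper-quartile and total scaling, DESeq2 1.42.0, limma 3.58.1 (voom, and trend, where the prior count was 2), no filter or a mean of 1 CPM, non-robust estimation, a replicate block, offsets for GC content and length (lowess span 0.3), an adjusted p under 0.1, and leaving out each library. At 22501208 to 34109018 reads on genes, the 2 livers per group limit the precision more than depth, and floors cover counting error only.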

Additional observations from a re-analysis of the deposited data

Results flagged for a closer look

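Reads that fitted more than 1 gene, which no comparison used, came to 2.5% and 2.54% (WT) against 3.49% and 3.66% (DDI2-KO), taken as a percent of reads on genes, a difference of means of 1.05 percentage points, above the level of both control libraries. Such reads can come from Ddi2 and Rsc1a1, or from other overlapping genes, and the deposited counts do not tell which. Their part in the value of Ddi2 was not tested.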

How the results depend on the processing

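None of the 9 pathway genes was called under any alternative, nor in the main fit at the threshold of 0.1. That threshold was applied to the main fit only. In edgeR, Syvn1 had an adjusted p of 0.0913 with offsets for GC content and length and 0.0978 with no filter. Of 135 values of single members (9 genes, 15 alternatives), 133 kept their direction and 2 reversed, both of Nfe2l1, −0.17 without WT replicate 2 and −0.24 without DDI2-KO replicate 1. Its range with single libraries left out was −0.24 to 0.47. The 346 genes called became 940 by DESeq2, 136 by limma-voom, 139 by limma-trend, 1544 with no filter on low counts, 152 without robust estimation, 830 with offsets for GC content and length and 1281 at an adjusted p under 0.1. Leaving out single libraries gave 153 (WT replicate 1) to 631 (DDI2-KO replicate 2), with 203 without WT replicate 2. The share of calls higher in DDI2-KO was 52.6%, 39.7% of 317 with upper-quartile factors, 60.8% of 378 with library totals and 37.4% without WT replicate 2. The 2 partner genes called became 1 with upper-quartile factors, 9 each by DESeq2, the replicate block and the offsets, 12 with no filter, and 0 by limma-voom, by limma-trend, with the filter at a mean of 1 CPM and without robust estimation. With single libraries left out they numbered 0 (without WT replicate 2) to 5 (without DDI2-KO replicate 2), and 1 without WT replicate 1. The cause of these shifts was not tested.

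The replicate block gave 1108 genes called. Deviations of libraries with the same number had a correlation of 0.0588, and the numbers mark no pairing in the labels. Under the block Nfe2l1 kept a log2 fold change of 0.11 with an SE of 0.19 (edgeR adjusted p = 0.764), and Syvn1 had an adjusted p of 0.101. It changed the call of no member.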
